A study of Mus musculus with 14 samples.

Results

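The mitochondrial solute carriers were taken as every gene in the count table whose symbol is Slc25a followed by a number, which gave 47 of 23412 genes. The samples were mouse cortex from 2 genotypes. Control mice carried the genotype Rpl22flox/flox;CamKCre+, and knock-out (KO) mice carried Fmr1X-Y on top of the same Rpl22flox/flox;CamKCre+ alleles, so that the floxed Rpl22 gene and the CamK-driven Cre were shared by both groups. RNA-seq libraries came from mice 1, 3, 6 and 8 (control) and 2, 4, 5 and 7 (KO), and ribosome profiling libraries from mice 1, 3 and 9 (control) and 2, 4 and 10 (KO). Both assays used brain lysate, and the protocols name no step that selects the tagged ribosomes of the Cre-expressing neurons, so the values stand for the mixed cells of the tissue. In such bulk samples, fewer cells of a type and less RNA per cell cannot be told apart. The labels give no age.

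The SLC25 family spans the inner mitochondrial membrane, which is closed to most charged metabolites. Each carrier moves a small set of substrates, often by exchanging one for another: ADP for ATP, aspartate for glutamate, malate for oxoglutarate, or cofactors and nucleotides that the matrix needs. In neurons these carriers supply the ATP used at synapses, and several of them carry calcium-binding domains that tie transport to calcium in the cytosol. FMRP, the protein product of Fmr1, binds mRNA and ribosomes, and the series title asks how its loss alters translation elongation. Ribosome profiling sequences the mRNA fragments that ribosomes shield from nuclease (footprints), and the footprint level relative to the RNA level of a gene is called its translational efficiency (TE).

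Fmr1 RNA was at 82.9 ± 8.37 CPM in controls, against 21.7 ± 2.40 CPM in KO mice (SD over 4 libraries each; CPM is the count scaled to a common library size), and its footprints were at 113 ± 1.99 and 7.44 ± 1.43 CPM (SD over 3 libraries each). Both differences follow the labels. Library totals were 8847547 to 11371851 counts in RNA and 4124065 to 6033030 in footprints. The RNA libraries of KO mice 2, 4 and 7 differed from one another by little more than counting noise, with a chi-square (per degree of freedom) between 1.18 and 1.32 for each pair, against 5.64 to 6.02 for their pairs with KO mouse 5 and 4.03 to 11.8 for control pairs other than mice 1 and 3 (1.99). Footprint pairs of the same genotype lay between 1.15 and 1.42. P-values therefore measure the spread between these libraries, which in footprints is small. Every marker gene examined had counts in every RNA library, except Hcrt of the hypothalamus list, which was at 0 in 1. The summed RNA of 5 excitatory neuron markers was 2048 to 2328 CPM in controls, against 2631 to 2926 CPM in KO mice, and that of 5 oligodendrocyte markers was 4665 to 5118 and 4052 to 4394 CPM. In footprints the sum of the excitatory markers was 4380 to 4486 CPM in controls, against 4127 to 4253 CPM in KO mice; Camk2a was called lower there, and Slc17a7 and Neurod6 were called higher. Summed footprints of 5 astrocyte markers were 1631 to 1674 CPM in controls, against 1516 to 1535 CPM in KO mice, and those of the oligodendrocyte markers were 8011 to 8160 and 7797 to 7850 CPM. The summed RNA of 5 hypothalamus markers was 31.8 to 61.7 CPM in controls, against 12.9 to 18.8 CPM in KO mice, and that of 5 choroid plexus markers was 10.6 to 279 and 5.49 to 116 CPM. The part of these differences in the results on carriers was not tested.

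Of the 47 carriers, 40 passed the filter on low counts in RNA and 36 in footprints and TE. The 7 under the filter in both assays were Slc25a2, Slc25a21, Slc25a31, Slc25a41, Slc25a43, Slc25a48 and Slc25a54. Slc25a34, Slc25a37, Slc25a45 and Slc25a47 were tested in RNA only. Slc25a54 had 0 counts in every library, which allows up to 0.264 to 0.339 CPM per RNA library and 0.497 to 0.727 CPM per footprint library (3 counts, counting error only).

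The genotypes differed in few carriers, and every carrier called in RNA or in footprints was higher in KO mice. In RNA 4 of 40 were called higher (edgeR quasi-likelihood test, adjusted p under 0.05 over all genes tested), namely Slc25a22, Slc25a23, Slc25a3 and Slc25a33. This was 10% of the carriers tested, against 7.41% of all genes called in either direction and 3.53% called higher. In footprints 7 of 36 were called higher, namely Slc25a12, Slc25a14, Slc25a22, Slc25a23, Slc25a25, Slc25a33 and Slc25a5. This was 19.4% of the carriers tested, below the 25.5% of all genes called in footprints and above the 11.9% called higher. In TE 1 of 36 was called, Slc25a3, which was lower in KO mice. That was 2.78% of the carriers tested, against 7.81% of all genes called and 4.41% called lower; no carrier was called higher in TE, where 3.4% of all genes were. The carriers called lower in RNA (0 of 40) and in footprints (0 of 36) stood against 3.88% and 13.6% of all genes. At an unadjusted p under 0.05, 8 carriers passed in RNA, 13 in footprints and 3 in TE, where 3148 of 13507, 4298 of 12158 and 2805 of 12145 genes passed. DESeq2 called 4, 4 and 1 carriers (10%, 11.1% and 2.78%), with none lower in RNA or footprints, against 8.47%, 15% and 8.3% of all genes.

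The median log2 fold change of the carriers was 0.037 in RNA (range -0.14 to 0.48), 0.093 in footprints (-0.44 to 0.70) and -0.028 in TE (-0.73 to 0.79). Over all genes tested the medians were -0.001, 0.005 and -0.011. The scaling bears on direction here, since on plain library sizes 66.3% of all footprint calls and 67.6% of all TE calls were higher in KO mice, against 46.7% and 43.5% with TMM normalization. With plain library sizes 10 carriers were called in footprints, all higher, and the TE call passed from Slc25a3 to Slc25a14 (higher). Every KO library lay above every control library for 8 of 40 carriers in RNA and below for 1 (Slc25a17), where 15.1% of all genes had no overlap between genotypes (7.1% above and 7.97% below). In footprints the counts were 9 above and 2 below (Slc25a32 and Slc25a4) of 36, where 37.3% of all genes had no overlap (18.1% above and 19.2% below).

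The number of carriers called in RNA moved with the libraries used, and so did the share of all genes called. When the libraries of KO mice 2, 4 and 7 were added up and counted once, and likewise those of control mice 1 and 3, no carrier was called by edgeR (4 at an unadjusted p under 0.05) and 0.263% of all genes were called. With mice 5 to 8 only, no carrier was called (3 at an unadjusted p under 0.05), with 0.652% of all genes called. With mice 1 to 4 only, 8 carriers were called (19%), below the 24.1% of all genes; Slc25a31, which passes the filter there through the KO libraries, was 1 of them. The count was 1 without mouse 2, 2 without mouse 4 and 1 without mouse 7 (2.5%, 4.88% and 2.44%, against 2.66%, 2.62% and 2.77% of all genes). In footprints it was 4 without mouse 3 (11.1%, against 20.9% of all genes). Whether KO RNA libraries 2, 4 and 7 come from separate tissue samples cannot be told from the counts, although the labels number them as separate mice.

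**Figure D1:**
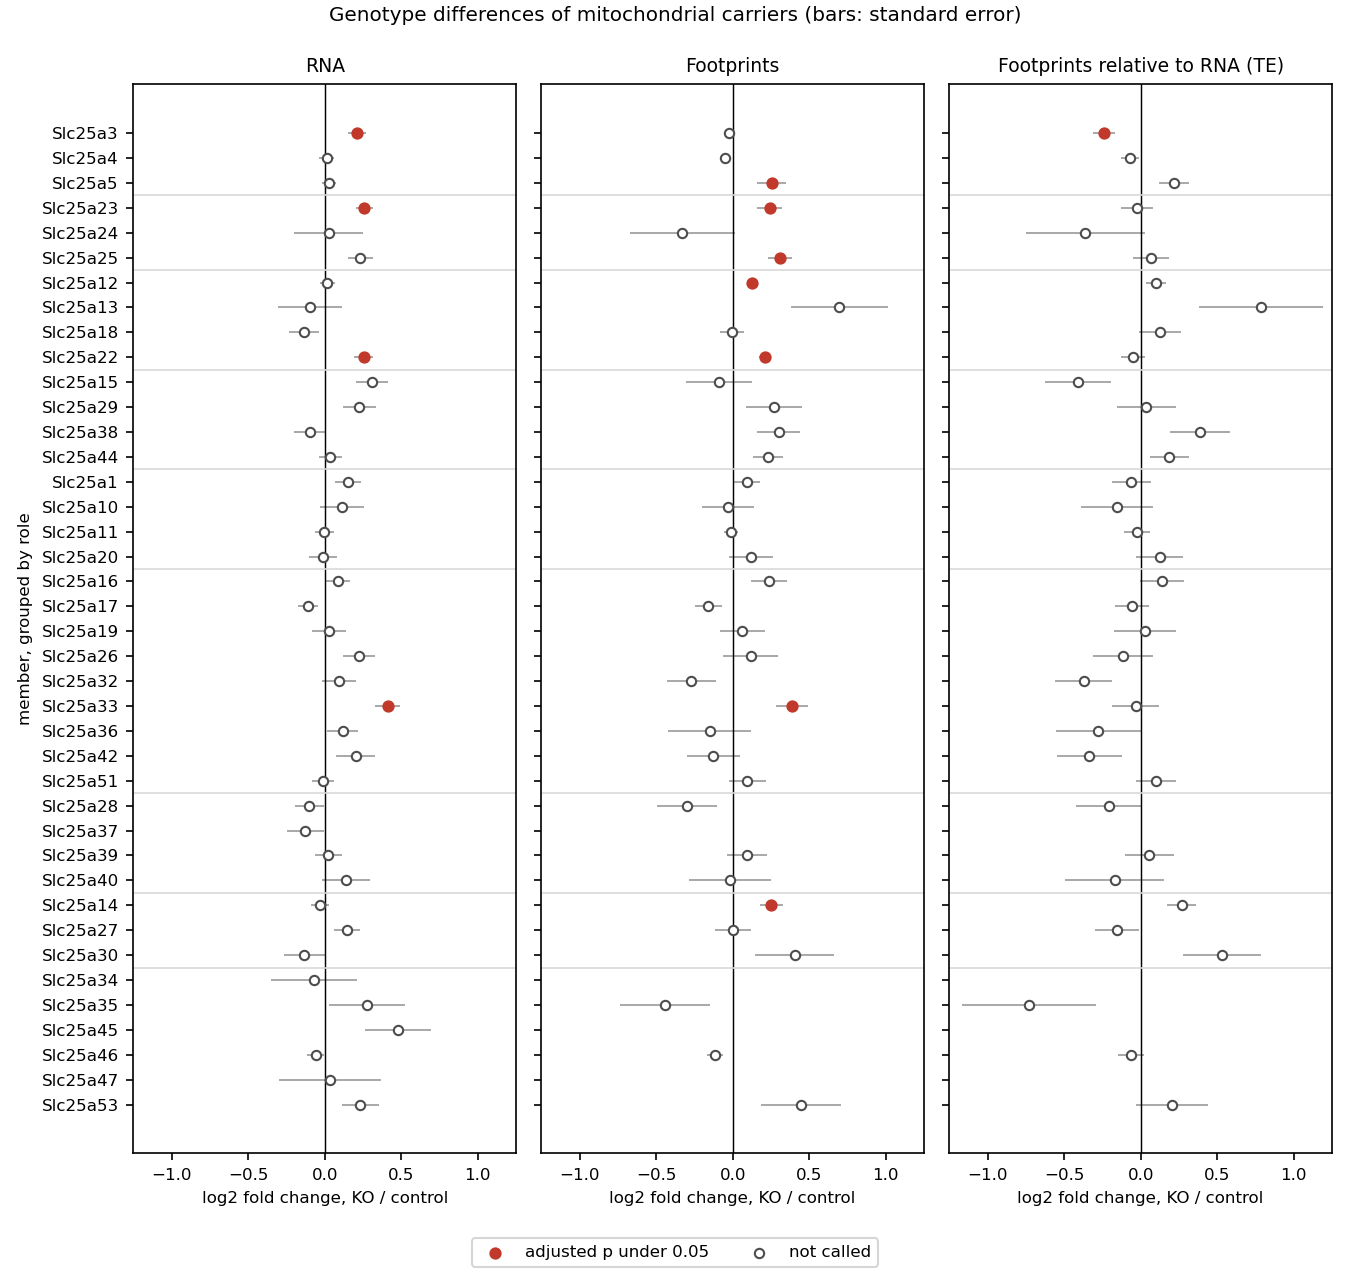
Log2 fold change of KO over control (x axis) for each of the 40 carriers tested in RNA and the 36 tested in footprints and TE, grouped by role along the y axis. Bars are standard errors, and filled red points have an adjusted p under 0.05; the 4 RNA calls and 7 footprint calls lie right of 0 and the 1 TE call, Slc25a3, lies left of it.

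Upstream sequence from RefSeq (GRCm38.p6, the 250 bases before each listed start) was matched for 36 of the 47 carriers and for 16375 genes. It was searched on both strands for 6 motifs of factors that act on metabolic or activity-driven genes. The CREB site TGACGTCA was found in 2 carriers (5.56%, Slc25a25 and Slc25a36) and in 2.25% of all genes. The E-box CACGTG was found in 7 carriers (19.4%), Slc25a33, Slc25a14 and Slc25a31 among them, and in 7.85% of all genes. The NRF1 motif was found in 2 carriers (5.56%, Slc25a3 and Slc25a31) and in 5.92% of all genes, and the ETS motif CCGGAAG in 6 (16.7%) and in 10.2%. The AP-1 motif TGANTCA was found in 2 carriers (5.56%) and in 7.35% of all genes, and the nuclear receptor motif AAGGTCA in 1 (2.78%) and in 4.2%. A match is a description of the letters only, and no binding was measured. Of the 8 carriers called in any test, Slc25a5, Slc25a12, Slc25a22 and Slc25a23 held none of the 6 motifs. Stretches are printed for 3 of the 4 called carriers that held one and for Slc25a31, which is under the filter and is described further on, 5′ to 3′ on the gene's strand, with motifs in capitals. They lie at chr2:32424183-32424242 on the minus strand (Slc25a25, 1 of 3 listed starts), chr4:149774268-149774327 on the minus strand (Slc25a33), chr10:91124128-91124187 on the minus strand (Slc25a3) and chr3:40708771-40708840 on the plus strand (Slc25a31).
Slc25a25: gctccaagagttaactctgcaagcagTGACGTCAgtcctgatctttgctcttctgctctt
Slc25a33: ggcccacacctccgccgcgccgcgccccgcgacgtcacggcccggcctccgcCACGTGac
Slc25a3: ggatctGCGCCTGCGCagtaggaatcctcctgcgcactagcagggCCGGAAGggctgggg
Slc25a31: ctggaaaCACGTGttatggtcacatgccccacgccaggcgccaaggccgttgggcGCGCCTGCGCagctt

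Among the carriers of adenine nucleotides and phosphate, Slc25a3 imports the phosphate that ATP synthase joins to ADP. Slc25a3 RNA was 350, 329, 373 and 382 CPM in control mice 1, 3, 6 and 8 and 404, 414, 440 and 400 CPM in KO mice 2, 4, 5 and 7. All 4 KO libraries lay above all 4 controls, and the log2 fold change was 0.21 ± 0.059 (SE, edgeR adjusted p = 0.0433). Slc25a3 footprints were 752, 708 and 732 CPM in control mice 1, 3 and 9 and 708, 715 and 732 CPM in KO mice 2, 4 and 10. The footprint groups overlapped, with a log2 fold change of -0.021 ± 0.027 (SE, edgeR adjusted p = 0.611). TE fell by 0.24 ± 0.073 (log2, SE; edgeR adjusted p = 0.0462). With the mouse number as a block, which pairs the assays of mice 1 to 4, Slc25a3 TE fell by 0.32 ± 0.057 (edgeR adjusted p = 3.64e-06), Slc25a5 was also called (0.37 ± 0.12, edgeR adjusted p = 0.0145), and 1812 genes were called in all in place of 949. Deviations of the same mouse in both assays were nearly uncorrelated (-0.012 to 0.035), and with the summed libraries no carrier was called in TE (2 at an unadjusted p under 0.05, edgeR). The RNA call of Slc25a3 was lost without mouse 1 (edgeR adjusted p = 0.0987), 2 (0.0953), 3 (0.108), 4 (0.114), 5 (0.0531), 6 (0.0755) or 7 (0.0853), in the RNA columns marked exon (0.0763) and with the summed libraries (0.379). Its TE call was lost without mouse 1 (0.153), 2 (0.148), 3 (0.0903), 4 (0.155), 5 (0.0505), 7 (0.0544), 9 (0.0954) or 10 (0.0811), with the title prefix as a block (0.0605), with the summed libraries (0.101), in the exon columns (0.126), on plain library sizes (0.133), with DESeq2 size factors in edgeR (0.0507) and with no filter (0.0593).

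Slc25a4 and Slc25a5 are the adenine nucleotide translocases that hand ATP to the cytosol in exchange for ADP. Slc25a4 RNA was 812, 781, 819 and 793 CPM in controls, against 805, 786, 841 and 805 CPM in KO mice, with a log2 fold change of 0.014 ± 0.049 (SE, edgeR adjusted p = 0.899). Slc25a4 footprints were 1214, 1206 and 1193 CPM in controls, against 1159, 1173 and 1160 CPM in KO mice. The 3 KO libraries lay below the 3 controls, but the log2 fold change of -0.049 ± 0.023 was not called (SE, edgeR adjusted p = 0.107). Slc25a5 RNA was 226, 236, 222 and 234 CPM in controls, against 235, 233, 232 and 236 CPM in KO mice, and its log2 fold change was 0.028 ± 0.048 (SE, edgeR adjusted p = 0.778). Slc25a5 footprints were 37.3, 36.5 and 43.1 CPM in controls, against 45.8, 51.3 and 42.7 CPM in KO mice. They were called higher at a log2 fold change of 0.25 ± 0.091 (SE, edgeR adjusted p = 0.0300), although KO mouse 10 lay below control mouse 9. This call was lost with DESeq2 (0.145) and without mouse 1 (0.0889), 2 (0.0532), 3 (0.175) or 4 (0.232). RefSeq lists a pseudogene of Slc25a5, and how shared reads were counted is not given in the sources used here, so its level is uncertain.

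The ATP-Mg/phosphate carriers set the size of the adenine nucleotide pool in the matrix and respond to calcium. Of the 3 tested, 1 was called in RNA and 2 in footprints, and none in TE (0 at an unadjusted p under 0.05), where 7.41%, 25.5% and 7.81% of all genes were called; a group of 3 is too small to set against these shares. Slc25a23 RNA was 199.8, 196, 223 and 202 CPM in controls, against 253, 241, 232 and 256 CPM in KO mice. No KO library reached down to a control library, and the log2 fold change was 0.26 ± 0.057 (SE, edgeR adjusted p = 0.0150). Slc25a23 footprints were 44.9, 51.6 and 49.4 CPM in controls, against 52.7, 57.1 and 63.5 CPM in KO mice. These groups were also apart, with a log2 fold change of 0.24 ± 0.082 (SE, edgeR adjusted p = 0.0189) (TE log2 fold change -0.023 ± 0.10 SE, edgeR adjusted p = 0.921). The RNA call was lost without mouse 2 (0.0634) or 7 (0.0647), in the exon columns (0.133) and with the summed libraries (0.369). The footprint call was lost without mouse 1 (0.102) or 10 (0.217), with DESeq2 (0.112) and in 1 fit over all 14 libraries (0.0722).

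Slc25a25 is the relative of Slc25a23 whose printed upstream stretch holds the CREB site. Slc25a36, the other carrier with that site, was not called in RNA (log2 fold change 0.12 ± 0.10 SE, edgeR adjusted p = 0.541). Its footprints were not called either (-0.15 ± 0.27 SE, edgeR adjusted p = 0.743). Slc25a25 footprints were 51.7, 56.8 and 48.7 CPM in controls, against 65.9, 64.3 and 65.1 CPM in KO mice. The KO libraries sat in a narrow band above the controls, and the log2 fold change was 0.31 ± 0.077 (SE, edgeR adjusted p = 0.00106). Slc25a25 RNA was 48.7, 47.1, 51.7 and 57.4 CPM in controls, against 60.4, 60.2, 53.9 and 66.1 CPM in KO mice. The groups overlapped because KO mouse 5 lay below control mouse 8, and the log2 fold change of 0.23 ± 0.081 was not called (SE, edgeR adjusted p = 0.0912). It was called without mouse 5 (0.0342) or without mouse 8 (0.0158), in the exon columns (0.0444), in 1 fit over all 14 libraries (0.0308) and with mice 1 to 4 only (0.00106). The same 2 libraries stood apart in Fos, an immediate early gene of neuronal activity. Fos RNA was 16.2, 16.8, 14.7 and 34.9 CPM in control mice 1, 3, 6 and 8 and 96.4, 100.1, 35.3 and 97.4 CPM in KO mice 2, 4, 5 and 7, and its part in the Slc25a25 result was not tested. Slc25a24, the third carrier of the group, had 9 to 18 footprints per library and was called in neither assay.

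Of the 4 carriers of aspartate and glutamate, 1 was called in RNA and 2 in footprints, and none in TE (0 at an unadjusted p under 0.05), beside the same shares of all genes (7.41%, 25.5% and 7.81%). Slc25a22 moves glutamate into the matrix together with a proton. Slc25a22 RNA was 141, 124, 149.7 and 143 CPM in controls, against 163, 164, 174 and 164 CPM in KO mice. Slc25a22 footprints were 275, 282 and 296 CPM in controls, against 328, 332 and 329 CPM in KO mice. Both assays kept the genotypes apart, at log2 fold changes of 0.25 ± 0.061 in RNA (SE, edgeR adjusted p = 0.0225) and 0.21 ± 0.036 in footprints (SE, edgeR adjusted p = 1.11e-06). The footprint call, the one with the smallest adjusted p among the carriers, held in all 12 alternatives, as did that of Slc25a25, while the RNA call was lost without mouse 1 (0.0511), 2 (0.0635), 3 (0.0533), 4 (0.0653) or 7 (0.0649), in the exon columns (0.0510) and with the summed libraries (0.304).

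Slc25a12 exchanges aspartate for glutamate in the malate-aspartate shuttle, which brings reducing equivalents into neuronal mitochondria. Slc25a12 RNA was 229.6, 225, 229 and 246 CPM in controls, against 237, 229, 240 and 234 CPM in KO mice, fully overlapping (log2 fold change 0.018 ± 0.050 SE, edgeR adjusted p = 0.868). Slc25a12 footprints were 288, 272 and 281 CPM in controls, against 306, 306 and 305 CPM in KO mice. They rose by a small amount above a narrow spread, with a log2 fold change of 0.13 ± 0.036 (SE, edgeR adjusted p = 0.00462). That call was lost without mouse 3 (0.0604) and in 1 fit over all 14 libraries (0.126). Its close relative Slc25a13 had 12 to 25 footprints per library, and the log2 fold change of 0.70 ± 0.32 in footprints was not called (SE, edgeR adjusted p = 0.0988), except without mouse 1 (1.09, 0.0218). Slc25a18, the other glutamate carrier, was called in none of the 3 tests, with a footprint log2 fold change of -0.0044 ± 0.080 (SE, edgeR adjusted p = 0.976).

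**Figure D2:**
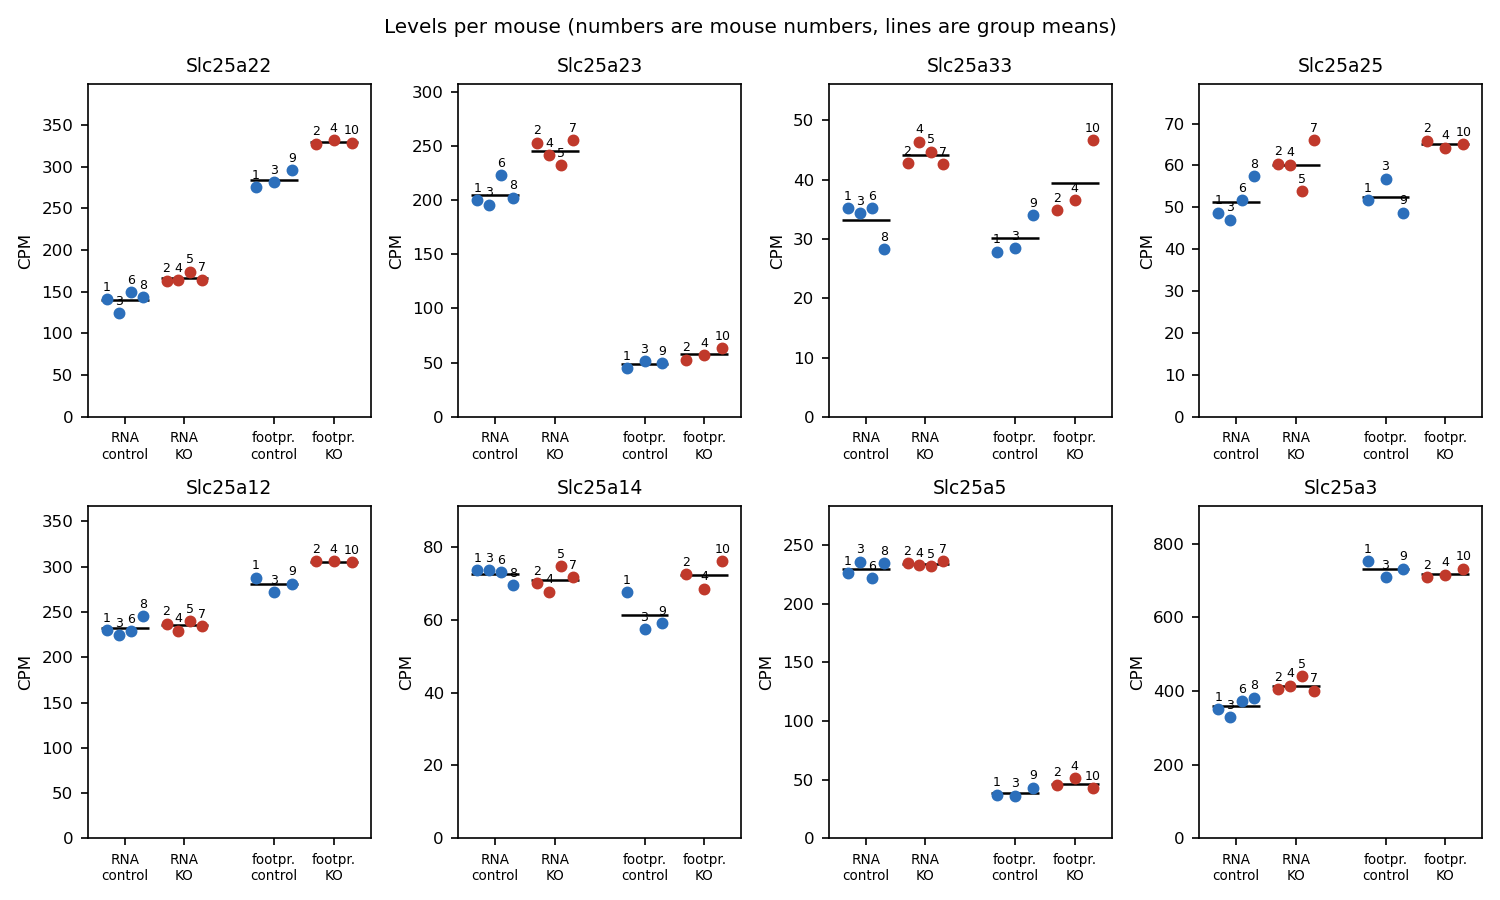
CPM in each mouse (y axis, from 0) for the 8 carriers called in any test, in RNA and footprints of control (blue) and KO (red) mice; points carry the mouse number and lines are group means. Slc25a22 was apart between genotypes in both assays, Slc25a12 only in footprints, and Slc25a3 only in RNA.

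Slc25a33 carries pyrimidine nucleotides into the matrix, where they serve mitochondrial DNA and RNA synthesis. Its RNA was 35.2, 34.3, 35.2 and 28.3 CPM in controls, against 42.8, 46.4, 44.7 and 42.6 CPM in KO mice. Slc25a33 footprints were 27.9, 28.5 and 34.0 CPM in controls, against 34.9, 36.5 and 46.7 CPM in KO mice. In both assays each KO library lay above each control library. The log2 fold change was 0.41 ± 0.081 in RNA (SE, edgeR adjusted p = 0.00935) and 0.39 ± 0.10 in footprints (SE, edgeR adjusted p = 0.00257), which made it the largest fold among the called carriers. The RNA call held without any 1 mouse, and was lost with the summed libraries (0.169) and with mice 5 to 8 only (0.112). The footprint call was lost without mouse 10 (log2 fold change 0.24, edgeR adjusted p = 0.146). Of the 9 carriers of cofactors and pyrimidine nucleotides, the remaining 8 were called in no test. Among them, Slc25a16, which is linked to coenzyme A, had a footprint log2 fold change of 0.24 ± 0.12 (SE, edgeR adjusted p = 0.134; 0.0473 on plain library sizes), and Slc25a51, which imports NAD, had one of 0.096 ± 0.12 (SE, edgeR adjusted p = 0.613).

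Slc25a14, Slc25a27 and Slc25a30 are relatives of the uncoupling proteins. Slc25a14 RNA was 73.6, 73.7, 73.1 and 69.5 CPM in controls, against 69.98, 67.8, 74.7 and 71.7 CPM in KO mice. Slc25a14 footprints were 67.5, 57.3 and 59.0 CPM in controls, against 72.6, 68.5 and 76.0 CPM in KO mice. The RNA overlapped (log2 fold change -0.029 ± 0.058 SE, edgeR adjusted p = 0.807), while the footprints of every KO mouse lay above those of every control mouse (0.25 ± 0.074 SE, edgeR adjusted p = 0.00564). The TE difference of 0.27 ± 0.095 was not called (SE, edgeR adjusted p = 0.0825), and it was called without mouse 5 (0.0472), on plain library sizes (0.0289) and with the exon columns (0.0395). The footprint call was lost with DESeq2 (0.0607) and without mouse 3 (0.0687) or 10 (0.0585). Slc25a27 did not differ beyond its error in footprints (0.0016 ± 0.12 SE, edgeR adjusted p = 0.994). Slc25a30 footprints did not overlap between genotypes, but with 21 to 27 counts per library the log2 fold change of 0.40 ± 0.26 was not called (SE, edgeR adjusted p = 0.265).

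No carrier of the remaining groups was called in any of the 3 tests. Among the 4 tested carriers of other amino acids, 1 passed an unadjusted p under 0.05 in RNA and 2 in footprints. Slc25a44, a carrier of branched-chain amino acids, had footprints of 33.5, 32.1 and 36.3 CPM in controls, against 37.2, 42.8 and 39.6 CPM in KO mice. Its groups were apart, at a log2 fold change of 0.23 ± 0.097 (SE, edgeR adjusted p = 0.0662), which was called without mouse 9 (0.0415) and on plain library sizes (0.0160), and its RNA overlapped (65 to 84 CPM in all, 75.6 ± 8.61 CPM in controls, against 77.7 ± 3.07 CPM in KO mice, SD, n = 4 each). Slc25a38, which supplies glycine for heme synthesis, had footprints of 19.8, 13.4 and 17.5 CPM in controls, against 21.4, 23.1 and 17.4 CPM in KO mice. These overlapped, and the log2 fold change was 0.30 ± 0.14 (SE, edgeR adjusted p = 0.106), which was called without mouse 1 (0.0406) or 10 (0.0412) and on plain library sizes (0.0423). Slc25a38 RNA was 24.2 ± 3.29 CPM in controls, against 22.6 ± 2.19 CPM in KO mice (SD, n = 4 each).

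The 4 tested carriers of di- and tricarboxylates and acylcarnitine had no unadjusted p under 0.05 in any test. Slc25a11, the oxoglutarate-malate partner of Slc25a12 in the shuttle, had log2 fold changes of -0.0019 ± 0.059 in RNA and -0.011 ± 0.047 in footprints (SE, edgeR adjusted p = 0.990 and 0.895). Slc25a1, which exports citrate, had 0.15 ± 0.086 in RNA and 0.094 ± 0.083 in footprints (SE, edgeR adjusted p = 0.316 and 0.451). Its RNA was called with mice 1 to 4 only (0.35, edgeR adjusted p = 0.00386), and the log2 fold change was -0.045 with mice 5 to 8 only. The carriers of iron and glutathione likewise had none. Slc25a39, needed for glutathione import, had 0.024 ± 0.085 in RNA, and Slc25a28, an iron carrier, had -0.099 ± 0.092 (SE, edgeR adjusted p = 0.898 and 0.560). Slc25a46, an outer membrane member that takes part in mitochondrial fission, had footprints of 140.4, 134 and 131 CPM in controls, against 134, 117 and 123 CPM in KO mice. KO mouse 2 lay above control mice 3 and 9 (134.3 against 134.2 and 130.8 CPM), so the groups overlapped, and the log2 fold change of -0.11 ± 0.054 was not called (SE, edgeR adjusted p = 0.108), except without mouse 2 (-0.17, 0.0317). Slc25a53, a member whose substrate is not assigned here, had KO libraries above all controls in both assays at log2 fold changes of 0.23 ± 0.12 in RNA and 0.45 ± 0.26 in footprints (SE, edgeR adjusted p = 0.273 and 0.214).

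Slc25a31, the adenine nucleotide translocase known from germ cells, was under the filter, and it is described here because its counts drew attention after they were seen. Its RNA counts were 3, 1, 0 and 0 in control mice 1, 3, 6 and 8 and 11, 18, 7 and 10 in KO mice 2, 4, 5 and 7. Its footprint counts were 2, 5 and 2 in control mice 1, 3 and 9 and 5, 6 and 9 in KO mice 2, 4 and 10. Each KO library lay above each control once scaled to library size, in RNA (0 to 0.302 and 0.813 to 1.57 CPM) and in footprints (0.354 to 0.848 and 1.19 to 1.89 CPM). The means were 0.101 ± 0.142 CPM in control RNA and 1.11 ± 0.323 CPM in KO RNA (SD, n = 4 each). In a fit with no filter it was called higher in RNA (log2 fold change 3.31 ± 0.62 SE, edgeR adjusted p = 0.00343) and not in footprints (1.34 ± 0.63 SE, edgeR adjusted p = 0.132) or TE (-1.92 ± 0.91 SE, edgeR adjusted p = 0.247). Without mouse 1, 3, 5 or 6 it passed the filter through its KO counts, and it is among the carriers counted as called in RNA there. With so few counts the fitted fold rests on the prior count and is no bound.

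**Figure D3:**
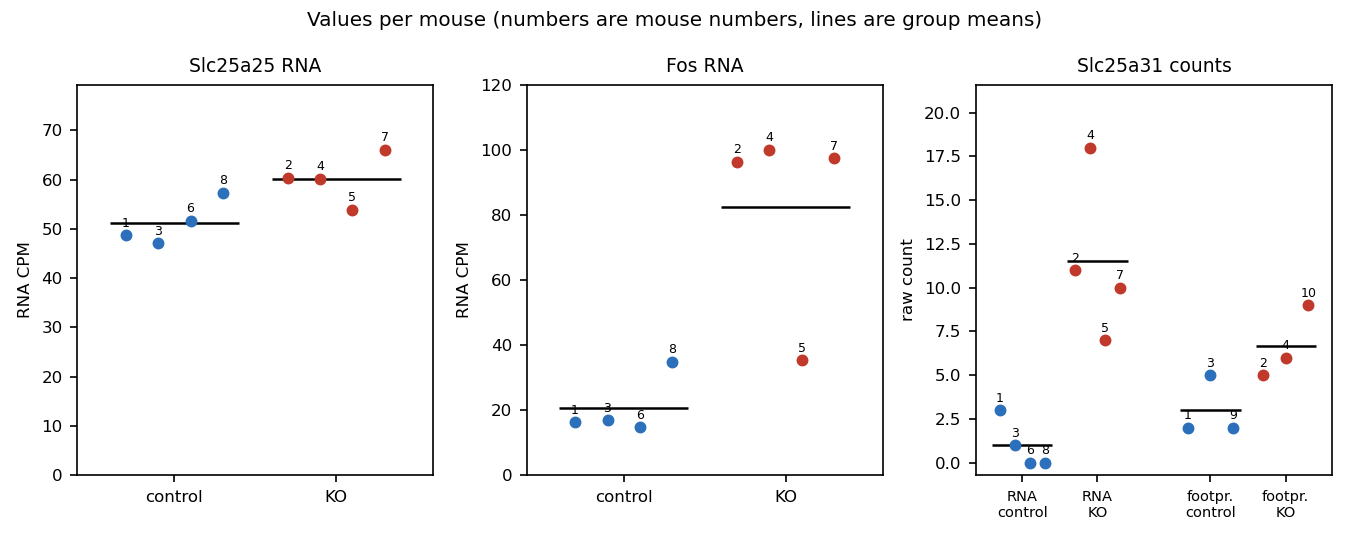
RNA of Slc25a25 and of Fos (CPM on the y axes) and counts of Slc25a31 in RNA and footprints (right panel), by genotype; each point is 1 mouse, numbered, and lines are group means. KO mouse 5 and control mouse 8 lie nearest the other genotype in Slc25a25 and in Fos, and Slc25a31 RNA counts were 0 to 3 in controls and 7 to 18 in KO mice.

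The ratio of footprints to RNA in controls differed widely between carriers. The log2 ratio of mean footprint CPM to mean RNA CPM ran from -2.56 to 1.16 over 36 carriers with a median of -0.11, and 17 of the 36 lay below the median of all 12145 genes (-0.13, quartiles -0.76 and 0.40). Slc25a35 was the highest at 1.16, on 9 to 34 footprints per library, but its log2 ratio was 0.81 in mouse 1 and 1.82 in mouse 3, and in mouse 1 it lay below Slc25a10, Slc25a3, Slc25a22 and Slc25a11. Slc25a22 and Slc25a3 followed at 1.03 each, at the 93.4th percentile of all genes, and in mice 1 and 3, which have both assays, the log2 ratio was 0.97 and 1.18 for Slc25a22 and 1.10 and 1.10 for Slc25a3. The lowest was Slc25a5 at -2.56 (the 1.79th percentile, with -2.60 and -2.69 in mice 1 and 3), followed by Slc25a23 at -2.08 (-2.16 and -1.92). The rank of Slc25a5 is uncertain, since how reads shared with its pseudogene were counted is not given. Slc25a4, the other translocase, was at 0.59. Slc25a51 (-1.64), Slc25a39 (-1.57) and Slc25a36 (-1.39) were also low. The RNA columns used here hold only a share of the reads in the columns marked exon, which among these 36 carriers ran from 16.1% in Slc25a36 to 84.3% in Slc25a4, so the ratio also depends on the region counted.

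**Figure D4:**
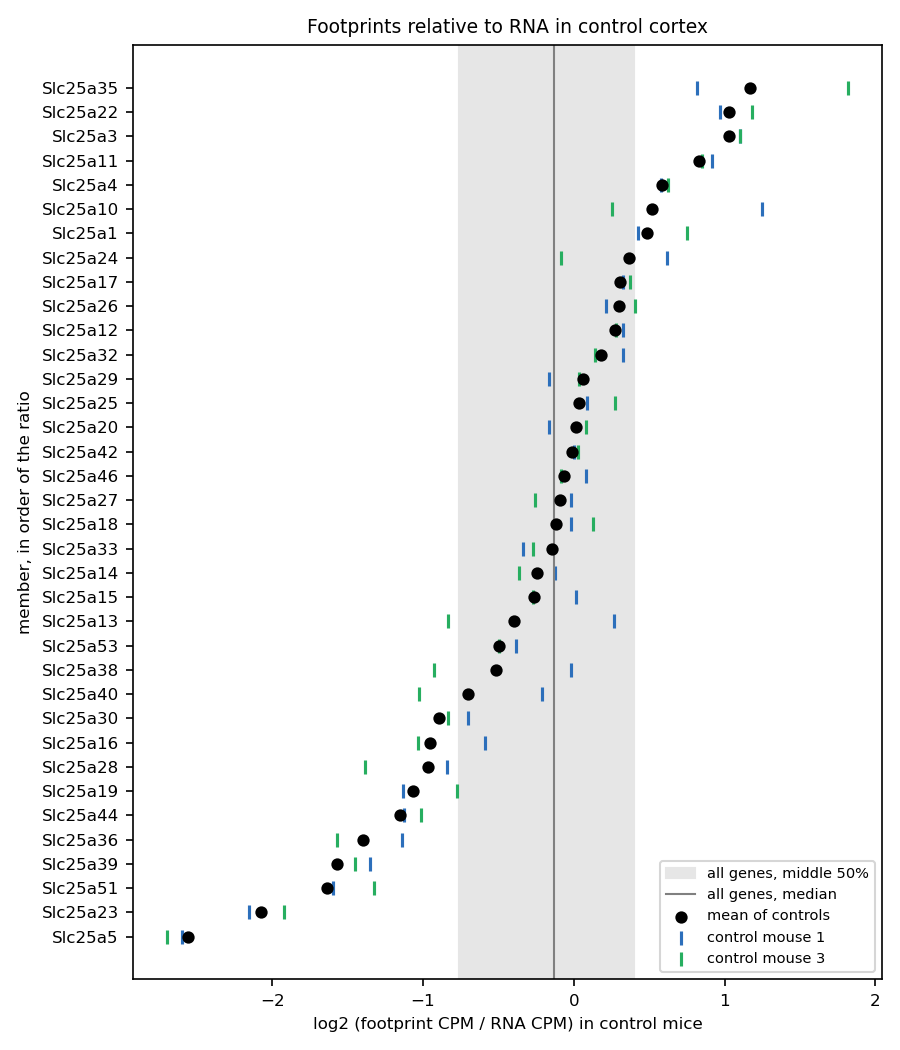
Log2 ratio of footprint CPM to RNA CPM in control mice (x axis) for the 36 carriers tested in both assays, in order of the ratio; black points use the control means, blue and green ticks are mice 1 and 3, and the grey band and line are the quartiles and median of all 12145 genes. Slc25a35, Slc25a22 and Slc25a3 lie at the high end and Slc25a5 and Slc25a23 at the low end. The place of Slc25a5 is uncertain because of its pseudogene.

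The carriers were set beside the respiratory chain and ATP synthase genes, which they feed, and beside all other solute carriers. Both comparison sets were taken by gene symbol. The first holds symbols that start with Atp5, Cox5 to Cox8, Nduf or Uqcr, and none that start with Sdh or Cox4. The second holds the remaining Slc symbols, such as Slc9a3r1, whether or not the gene is itself a carrier. No test of the difference between families was made, and the same libraries underlie all 3. Of 73 respiratory chain genes tested in RNA, 18 were called lower and 2 higher, and of 68 tested in footprints, 37 were called higher and 3 lower. In TE 26 of 67 were called higher. These were 27.4%, 58.8% and 38.8% called, against 7.41%, 25.5% and 7.81% of all genes. Their median log2 fold changes were -0.12, 0.12 and 0.24 in RNA, footprints and TE, against 0.037, 0.093 and -0.028 for the mitochondrial carriers. Of the other solute carriers, 13 of 226 were called higher and 4 lower in RNA, 20 of 202 higher and 27 lower in footprints, and 1 of 202 higher and 6 lower in TE, with medians of 0.072, -0.028 and -0.13. These were 7.52%, 23.3% and 3.47% called, near the shares of all genes in RNA and footprints and below it in TE. By sign alone, 15 of the 36 mitochondrial carriers were higher in both assays, 5 lower in both, 10 higher in RNA and lower in footprints, and 6 the reverse. The reverse pattern held 48 of 67 respiratory chain genes and 15 of 202 other solute carriers.

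Carriers reach the inner membrane through receptors and chaperones of the import machinery, and of these 12 were tested in each assay. In RNA 1 was lower (Timm10, log2 fold change -0.36 ± 0.089 SE, edgeR adjusted p = 0.0262), in footprints 3 were higher (Tomm70a, Tomm20 and Timm9) and 2 lower (Timm8b and Timm10), and in TE 2 were higher (Tomm20 and Timm9), or 8.33%, 41.7% and 16.7% called, against 7.41%, 25.5% and 7.81% of all genes. Tomm70a, the receptor that takes up carrier precursors, rose in footprints from 238 ± 7.03 to 283 ± 3.34 CPM (SD, n = 3 each). Its log2 fold change was 0.25 ± 0.038 (SE, edgeR adjusted p = 5.64e-08). Timm9 and Timm10 are chaperones that form a single complex in the space between the membranes. Timm9 footprints rose by 0.72 ± 0.14 (SE, edgeR adjusted p = 1.43e-05), while Timm10 footprints fell by 0.28 ± 0.086 (SE, edgeR adjusted p = 0.00850).

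Among family members under other symbols, Mtch2, an outer membrane relative of the carriers, rose in footprints (0.28 ± 0.066 SE, edgeR adjusted p = 0.000621). It was the only 1 of 3 called there (33.3%, against 25.5% of all genes). None of 4 was called in RNA (edgeR, 0 at an unadjusted p under 0.05), where 7.41% of all genes were. Of the other mitochondrial transporters, 7 of 21 were higher and 1 lower in footprints (38.1% called, against 25.5% of all genes). In RNA 1 of 23 was higher (4.35%, against 7.41%), and in TE 1 of 21 was higher (4.76%, against 7.81%). Vdac3, a channel of the outer membrane, had footprints of 14.98 ± 0.409 CPM in controls, against 31.1 ± 3.42 CPM in KO mice (SD, n = 3 each), and it rose in TE by 1.23 ± 0.13 (SE, edgeR adjusted p = 5.02e-06). Micu3, a regulator of the calcium uniporter listed under an older symbol, rose in RNA by 0.35 ± 0.068 (SE, edgeR adjusted p = 0.00801) and in footprints by 0.30 ± 0.066 (SE, edgeR adjusted p = 0.000173). Of 13 enzymes that act on either side of the carriers, 1 was higher in footprints (Mdh1) and 4 lower (Ckb, Acly, Glud1 and Ckmt1). That was 38.5% called, against 25.5% of all genes. None of the enzymes was called in RNA (3 at an unadjusted p under 0.05). Ckb, the cytosolic creatine kinase that uses exported ATP, fell from 1227 ± 12.95 to 993 ± 27.8 CPM in footprints (SD, n = 3 each; log2 fold change -0.31 ± 0.024 SE, edgeR adjusted p = 2.64e-20). Mdh1, the cytosolic enzyme of the malate-aspartate shuttle, rose by 0.067 ± 0.021 (SE, edgeR adjusted p = 0.00904).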

How the data were processed

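RNA-seq (8 libraries) and ribosome profiling (6 libraries) of 10 mice were read from a single table of raw gene counts, which the authors deposited without normalization. The submitters' processing notes list Bowtie2, STAR 2.5, featureCounts, Subread 1.4.6 and the builds mm9 and mm10, with no role given; the region counted is not given in the sources used here. Each RNA library has a column that covers the same genes as the footprints, used here, and one marked exon, used as an alternative. Columns of samples outside the series numbered 0.

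Genes were kept by filterByExpr (minimum count 10), scaled by TMM and tested by quasi-likelihood F tests in edgeR 4.0.16 under R 4.3.3. RNA and footprints were tested separately, and TE was tested as the interaction of genotype and assay over 14 libraries. Tests were two-sided, with Benjamini-Hochberg adjustment over all genes tested and a threshold of 0.05. Alternatives were other scalings, DESeq2 1.42.0, no filter, blocks, the exon columns, summed libraries and subsets of mice. The fits were tested on simulated data.

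Carriers named were those called in any test and the 2 per role with the highest control RNA, with values per mouse for the 12 of smallest adjusted p. Other carriers with values (Slc25a13, Slc25a18, Slc25a24, Slc25a30, Slc25a31, Slc25a35 and Slc25a36) were singled out after their values were seen. The members and lists were chosen with earlier results of these data known. Levels per coding length were planned, but coding lengths were not used here, so levels are not compared between genes. Slc25a52 and Slc25a55 of the role lists are not analysed here. Mice 1 to 4 pair the assays by the labels' mouse numbers; deviations of the same mouse correlated at -0.012 to 0.035 across 12145 genes.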

Additional observations from a re-analysis of the deposited data

Results flagged for a closer look

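In RNA, 1 library stood apart from the other 3 of its group in 4 of 40 groups of named carriers, by Dixon's ratio, which divides the gap between the extreme library and its neighbour by the range of the group. Chance gives about 1 in 20. Slc25a22 in KO mouse 5 was at 174 CPM, with the other KO mice at 163 to 164 CPM (ratio 0.906). Slc25a33 in control mouse 8 was at 28.3 CPM, with the others at 34.3 to 35.2 CPM (ratio 0.874). Slc25a14 in control mouse 8 was at 69.5 CPM, with the others at 73.1 to 73.7 CPM (ratio 0.865). Slc25a11 in control mouse 6 was at 103.5 CPM, with the others at 90.99 to 92.8 CPM (ratio 0.859). The Slc25a33 RNA call held without control mouse 8, and the Slc25a22 call held without KO mouse 5.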

How the results depend on the processing

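No direction of a called carrier reversed in any of the alternatives. The libraries that were summed are those that lay closest to one another in these same data. The number of carriers called in RNA (4) was 2 with the exon columns (4.88%, against 8.55% of all genes), 0 with summed libraries, 0 with mice 5 to 8 only and 8 with mice 1 to 4 only, and 1 to 5 with each mouse left out in turn. In footprints (7) it was 4 with DESeq2 (11.1%, against 15% of all genes) and 4 to 8 with each mouse left out, where 2 of the 8 without mouse 2 (Slc25a35, -1.02, adjusted p = 0.0272, and Slc25a46, -0.17, 0.0317, edgeR) were lower. In TE (1) it was 0 with DESeq2 size factors in edgeR, with no filter, with the title prefix as a block and with summed libraries (2 to 4 at an unadjusted p under 0.05), 2 with mice 1 to 4 only, and 0 to 1 with each mouse left out. The replicate block on mouse number gave 2 carriers in TE (Slc25a3 lower, Slc25a5 higher) and changed no other call of a named carrier. The TE call was Slc25a14 and not Slc25a3 on plain library sizes, with the exon columns and without mouse 5. The cause of these shifts was not tested, except that subsets and sums hold fewer libraries. Of the values of named carriers that were not called, 751 stayed as they were, 34 moved by more than their error and 18 became called. Slc25a13, Slc25a24 and Slc25a30, with under 30 footprints per library, had standard errors of 0.26 to 0.34, and Slc25a13 was called in footprints without mouse 1.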

Other observations

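In the RNA columns marked exon, counts of Slc25a31 were 3, 1, 1 and 0 in control mice 1, 3, 6 and 8 and 12, 24, 7 and 11 in KO mice 2, 4, 5 and 7. The summed RNA of all 47 carriers was 2987 ± 101 CPM in controls (2867 to 3071) and 3152 ± 37.0 CPM in KO mice (3110 to 3200; SD, n = 4 each). In footprints the sums overlapped, at 3429 to 3522 CPM in controls and 3520 to 3558 CPM in KO mice. The 4 carriers called higher in RNA are part of the RNA sum. Their mean CPM in controls and KO mice was 359 and 415 for Slc25a3, 205 and 245 for Slc25a23, and 139.5 and 166.4 for Slc25a22. Of the 40 carriers tested in RNA, 27 were higher and 13 lower by sign, with a median log2 fold change of 0.037.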
